A study of Rattus norvegicus with 46 samples.

Results

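Whole blood taken 1 day after the last exposure to crystalline silica was compared with blood of rats that breathed filtered air, in 12 of the 46 RNA-sequencing libraries of the study. The members were chosen by tissue and time alone: 6 blood libraries labelled silica (numbers 11, 12, 14, 15, 16 and 18) and 6 labelled air (numbers 02, 04, 05, 07, 08 and 09). The animals were male Fischer 344 rats of 250 to 300.0 g, described in the sample titles as aged. Silica was inhaled as Min-U-Sil 5 dust, a respirable crystalline quartz, by whole-body exposure to 15 mg/m3, in 5 daily sessions of 6 hours, and the control rats inhaled filtered air in the same way. Both groups were otherwise handled alike as far as the labels say: blood was drawn into K2EDTA tubes, and its RNA was depleted of alpha and beta globin mRNA before library preparation. The labels do not say that each library came from a separate animal. Each p-value therefore judges the difference of the groups against the spread between libraries, which may not be the spread between animals. The study also holds lung of the same time, and lung and blood of 6 months after exposure.

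Blood RNA is a mixture. Most transcripts of red cells come from reticulocytes, the youngest circulating red cells, which keep mRNA for globin, haem synthesis and iron storage although they no longer have a nucleus. Platelets carry mRNA left from megakaryocytes, and the white cells (neutrophils, monocytes, lymphocytes and rarer types) supply the rest. Inhaled silica is taken up by macrophages of the lung, which signal through interleukin-1 and chemokines and draw neutrophils from the blood into the airspaces. The comparison asks how much of an early lung exposure can be read in the blood.

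The cell-type check found blood. Transcripts that define red cells (Alas2), platelets (Pf4), neutrophils (S100a9, Csf3r), monocytes (Csf1r), B cells (Cd79b), T cells (Cd3e) and natural killer (NK) cells (Ncr1) were present in all 12 libraries. Of 16 markers of lung, liver and connective tissue, 2 passed the filter on low counts (Sftpd and Ager), the club cell gene Scgb1a1 and the collagen gene Col1a2 had no count in any library, and the summed level of the tested markers was 3.01 to 4.75 counts per 1000000 (CPM) in air and 2.38 to 6.31 CPM in silica. The libraries held 10631870 to 16757861 estimated counts, so that 3 counts, the level below which a value was taken as not measurable, equalled 0.179 to 0.282 CPM. Between libraries of the same group, 26.1% to 77.1% of genes differed beyond counting noise, so no library was a copy of another.

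The library silica 11 stood apart from the other 11. In it, 1316 genes (11.1% of those tested) lay more than 4-fold from the mean of the other libraries, against 61 to 105 genes in any other library, and the first principal component, with 51.7% of the variance, separated it from the rest. It had 14187 genes with a count, the fewest of the 12. The heat shock gene Hsp90aa1 was at 0 CPM there and at 53.6 CPM or more in every other library, and the genes listed as Rnr1 and Rnr2 were at 226 and 206 CPM where no other library was under 6301 CPM. Silica 12 had the largest share of globin counts, 29.2%, followed by silica 11 with 25.3%, while the other 10 libraries lay between 9.77% and 16.1%. Results are therefore given for the 12 libraries and again without silica 11, a choice made after seeing the data.

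No gene passed the test. Of 30045 genes in the table, 11876 had enough counts to be tested, and 0 of them (0%) reached an adjusted p below 0.05 by edgeR's quasi-likelihood test, with the smallest adjusted p at 0.9999. At an unadjusted p under 0.05, 294 genes (2.48% of those tested) were higher in silica and 136 (1.15%) were lower. DESeq2 on the same counts also called 0 genes, with 493 at an unadjusted p under 0.05. Without silica 11, edgeR called 0 of 11998 genes, its smallest adjusted p was 0.226, and 728 genes (6.07%) were higher and 366 (3.05%) lower at an unadjusted p under 0.05. DESeq2 without silica 11 called 47 of the 11998 genes (0.392%), 46 of them higher in silica. It gave no adjusted p to 5817 of these genes (13 of 11876 with all libraries), so it adjusted over fewer genes than edgeR, and the counts of the tools are not over the same genes. With the first principal component as a covariate, all 12 libraries kept, edgeR called 873 genes, 168 higher and 705 lower. Of these 327 had the other sign when silica 11 was left out. That component was computed from the same counts after centring each group, so the calls do not rest on an independent covariate.

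The data bound how large a change in blood could have been, gene by gene. Each interval given here and below is for 1 gene. It is not adjusted for the number of genes or for the choice of genes by a small p. The median log2 fold change over all tested genes was -0.01, and the median of its size regardless of sign was 0.14. The 95% interval of the log2 fold change lay within -1 and 1, that is within a 2-fold change either way, for 10466 genes (88.1%), and within a 1.5-fold change for 49.2%. Without silica 11 these shares were 92.0% and 71.4%. The median interval reached 0.43 log2 units to either side of the estimate, a factor of 1.35, and 0.29 without silica 11. Only 43 genes had an estimate beyond a 2-fold change.

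Abundance set how tight that bound was. Among the 541 tested genes under 1 CPM, 40.7% had an interval inside the 2-fold limits. The share was 75.9% for the 2599 genes at 1 to 4 CPM, 93.4% for the 4046 genes at 4 to 16 CPM, 95.5% for the 3245 genes at 16 to 64 CPM and 96.7% for the 1445 genes above 64 CPM. Above 4 CPM the median half-width barely moved, at 0.40, 0.36 and 0.37 in the 3 upper classes with all libraries, and at 0.28, 0.22 and 0.24 without silica 11. Among the genes with a mean of at least 5 CPM, 1 of the 5 narrowest intervals was that of Ezh1, a histone methyltransferase of the Polycomb group, at 57.2 to 62.6 CPM in air and 57.8 to 64.03 CPM in silica. The groups of Ezh1 overlapped, its log2 fold change was 0.03, and its interval ran from -0.17 to 0.23. The widest intervals belonged to entries whose counts fell to 0 in some libraries of both groups, such as the entry named Gata1-2, at 0 to 49.3 CPM in air and 0 to 143 CPM in silica, with an interval from -1.79 to 4.47 (-2.58 to 4.07 without silica 11).

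**Figure D1:**
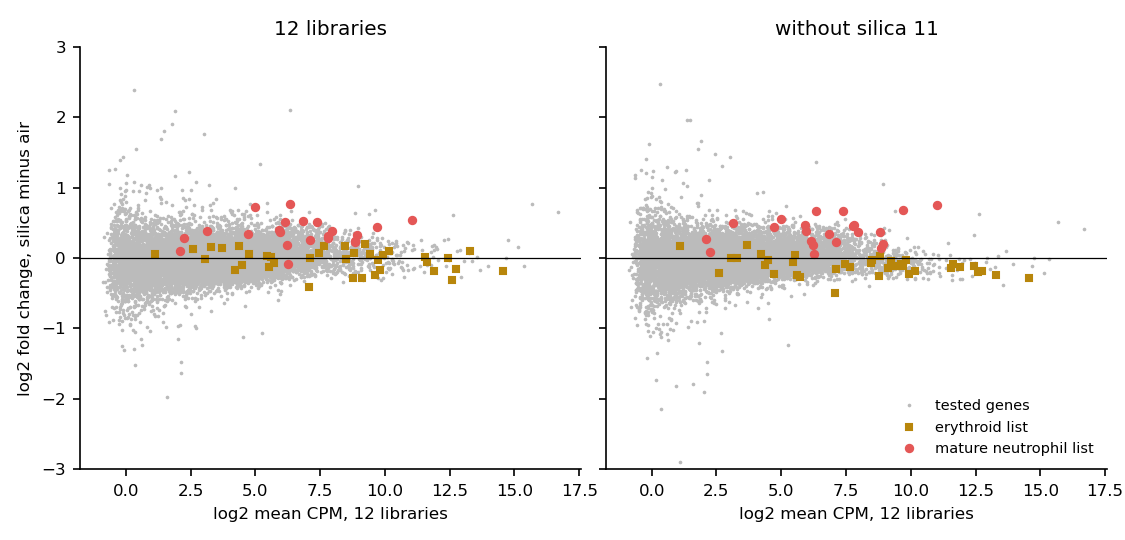
Log2 fold change of silica minus air (y axis) against log2 mean CPM over the 12 libraries (x axis) for every tested gene (grey), with the erythroid list (brown squares) and the mature neutrophil list (red circles), for all 12 libraries (left) and without silica 11 (right). The neutrophil genes lie above 0 on the left with 1 exception (Cybb) and all 22 above 0 on the right, while the erythroid genes lie around 0 on the left and mostly below 0 on the right.

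The most abundant transcripts were those of reticulocytes. The 10 most abundant genes of each library took 30.1%, 32.8% and 34.95% of its counts in air (lowest, median, highest) and 27.6%, 34.7% and 45.2% in silica, where silica 11 and silica 12 were the 2 libraries above 40%. All globin genes together took 9.77%, 14.2% and 15.2% of counts in air and 10.9%, 16.05% and 29.2% in silica. The difference of the means was 5.06 percentage points (two-sided exact permutation test, p = 0.182, adjusted p = 0.558 over 5 library measures), and the groups overlapped. Globin mRNA was depleted before sequencing, and how much of it the depletion left in each library was not tested. The other 4 measures (total counts, genes with a count, share of the top 10 genes, and the scaling factor that edgeR computes by the trimmed mean of M-values, TMM) each had an adjusted p of 0.558 by the same exact permutation test.

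The alpha globin gene Hba1, which encodes the oxygen-carrying subunit with Hba2, was the most abundant entry. It lay at 61578, 86626 and 100461 CPM in air and at 55614, 101877 and 232274 CPM in silica (lowest, median, highest). Silica 11 and silica 12 were above every air library, silica 15 was below every one, and the log2 fold change was 0.65 with an interval from -0.06 to 1.37 (0.42 without silica 11). The beta globin gene Hbb spread still more, at 3971 to 7398 CPM in air and 2621 to 20658 CPM in silica, with silica 12 highest and silica 15 lowest. Globin genes are near-identical copies, so reads could be split between them, and Hba1, Hba2 and Hbb had estimated counts that were not whole in every library. Of 9 globin entries tested, 7 were higher in silica, the median log2 fold change was 0.65 (0.58 without silica 11), and 2 had an interval inside the 2-fold limits. The median was 0.22 without silica 12, and 0.01 when both silica 11 and silica 12 were left out.

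Other abundant transcripts were bounded more tightly. Alas2, the erythroid enzyme that starts haem synthesis, lay at 17888, 26355 and 31088 CPM in air and 14824, 23469 and 30855 CPM in silica. The groups overlapped almost fully, with silica 12 lowest and air 08 highest. Its log2 fold change was -0.18 ± 0.22 (SE) with an interval from -0.64 to 0.28, which leaves out a 2-fold change, and -0.28 without silica 11. Ybx3, a cold-shock domain protein abundant in maturing red cells, had a log2 fold change of 0.00 (interval -0.42 to 0.42; -0.11 without silica 11), and Bpgm, which makes the red cell metabolite 2,3-bisphosphoglycerate, had -0.15 (interval -0.51 to 0.21). The ferritin heavy chain gene Fth1, for iron storage, had -0.12 (interval -0.47 to 0.23), and Tpt1, a translationally controlled growth protein, had -0.11 (interval -0.52 to 0.30), and -0.01 without silica 11. B2m, the light chain of MHC class I, which all nucleated cells make, lay at 9778 to 11702 CPM in air and 7827 to 12801 CPM in silica, with a log2 fold change of -0.05 (interval -0.38 to 0.29) that was 0.03 without silica 11.

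For some abundant transcripts silica 11 decided the estimate, and 4 are given here. The ferritin light chain gene Ftl1 lay at 24453 to 42034 CPM in air and 21590.1 to 36029.9 CPM in the other 5 silica libraries, but at 81115 CPM in silica 11. Its log2 fold change was 0.16 with all libraries and -0.21 without silica 11. The polyubiquitin gene Ubb went from 0.26 to 0.00, the mitochondrial carrier gene Ucp2 from 0.02 to -0.38, and the mitochondrial transporter gene Slc25a39, which serves red cell iron metabolism, from 0.10 to -0.24. Each of the 4 was highest in silica 11 and overlapped between the groups in the other libraries. Ftl1, Ubb, Fth1 and Tpt1 have near-identical copies or pseudogenes, and their estimated counts were not whole in any library.

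**Figure D2:**
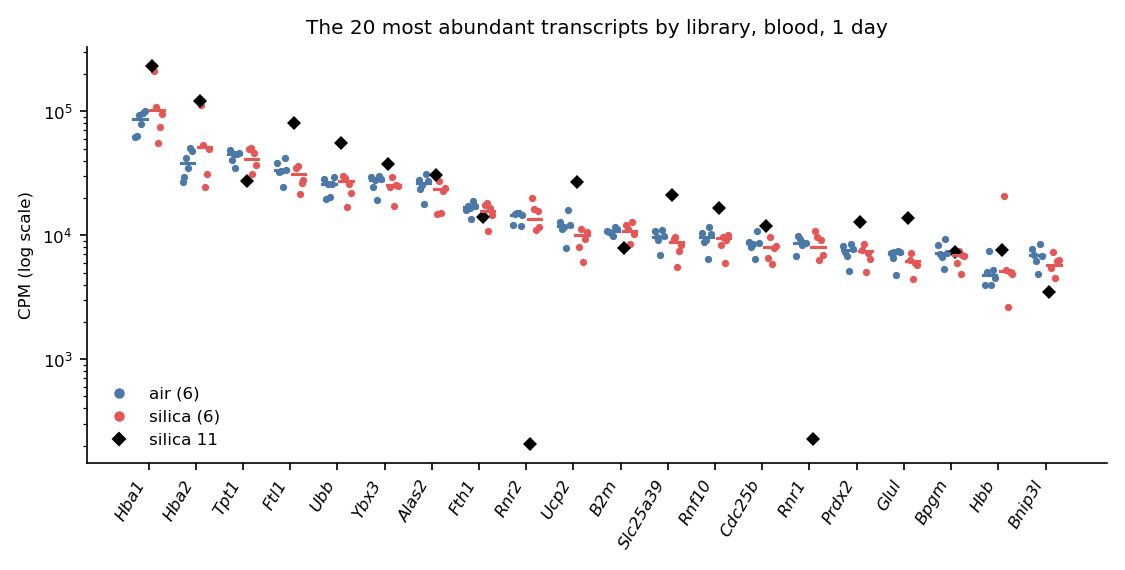
CPM (y axis, log scale) of the 20 most abundant genes (x axis) in each of the 6 air and 6 silica libraries of 1 day, with a line at each group's median and silica 11 as a black diamond. The libraries of both groups overlap for every gene shown, Rnr1 and Rnr2 are far lower in silica 11, and Ftl1, Ubb, Ucp2 and Slc25a39 are highest there.

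The composition of the blood was read from lists of genes typical of each cell type. In bulk RNA, fewer cells of a type and less RNA per cell cannot be told apart. The erythroid list, with 37 of 39 genes tested, had 18 members higher and 19 lower in silica, 0 in either direction at an unadjusted p under 0.05, and a median log2 fold change of 0.00. All 37 had an interval inside the 2-fold limits. The summed level of the list was 52589.9, 74549.6 and 91700.2 CPM in air and 45767, 69636 and 93688 CPM in silica. Silica 11 was the highest of the 12 and silica 15 the lowest, and all 6 air libraries lay between them. Without silica 11, 31 of the 37 were lower in silica, with a median of -0.11, and 1 of them, the erythroid transcription factor gene Gata1, was lower at an unadjusted p under 0.05 (log2 fold change -0.50, interval -0.92 to -0.08). Gata1 has a second entry in the table, Gata1-2, so its reads may be split.

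The platelet list, with all 24 genes tested, also overlapped between the groups. Its summed CPM was 4074, 5624 and 6356 in air and 4090.1, 5639.6 and 7187 in silica, and silica 11 was the highest. Of its members 15 were higher and 9 lower, 0 at an unadjusted p under 0.05, with a median log2 fold change of 0.06 (-0.02 without silica 11). Pf4, the platelet factor 4 chemokine stored in alpha granules, lay at 503, 684 and 893 CPM in air and 542, 841 and 929 CPM in silica, and the groups overlapped. Pf4 had a log2 fold change of 0.15 (interval -0.25 to 0.56). Itga2b, the platelet integrin subunit that binds fibrinogen, had 0.11 (interval -0.34 to 0.57), and -0.07 without silica 11. Of the 24 genes, 22 had an interval inside the 2-fold limits.

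Mature neutrophil transcripts were nearly all higher in silica, by amounts that did not pass the test. Of 24 listed genes 22 were tested (Cxcr1 and Mgam were too low), 21 of these were higher in silica and 1, Cybb, was lower. The median log2 fold change was 0.36, beside -0.01 for all tested genes, and 8 of the 22 were higher at an unadjusted p under 0.05, as were 2.48% of all tested genes. None was called at an adjusted p below 0.05. Without silica 11 all 22 were higher, the median was 0.38 and 14 reached an unadjusted p under 0.05, as did 6.07% of all tested genes. The summed level was 4150.4, 4759.6 and 6537 CPM in air and 4024, 6777 and 8684 CPM in silica. Silica 11 was the lowest of the 12 libraries. Of the other silica libraries, silica 18 lay at 6265 CPM, inside the range of air, and the rest lay above the highest air library, air 08.

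**Figure D3:**
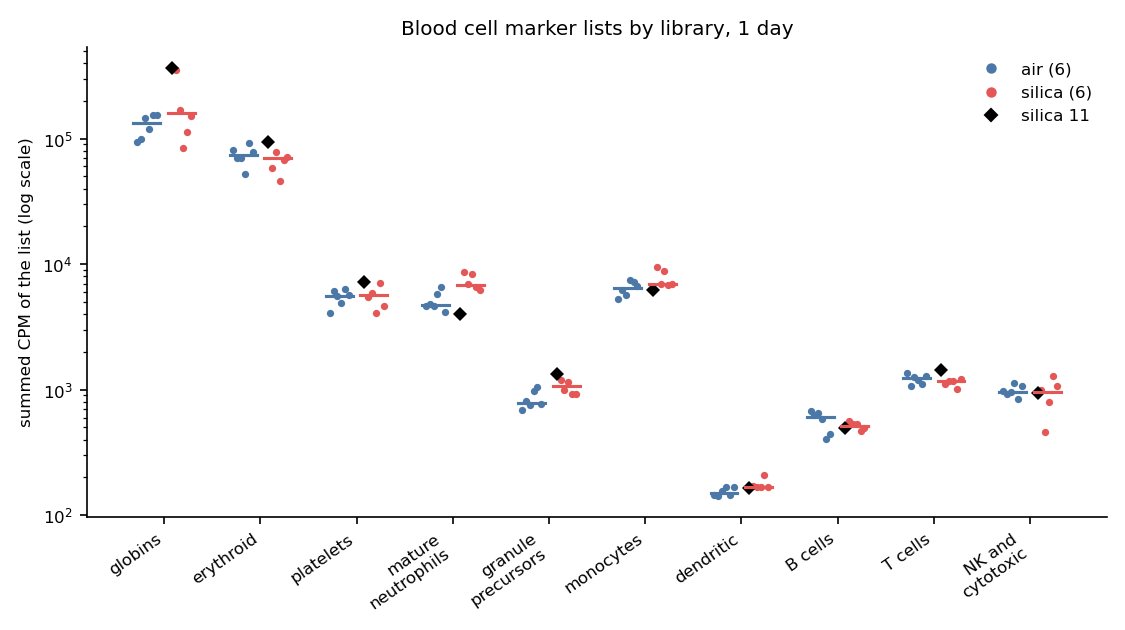
Summed CPM (y axis, log scale) of the tested members of 10 cell-type lists (x axis) in each library of air and silica at 1 day, with the line at each group's median and silica 11 as a black diamond. The 2 groups overlap for every list shown. The mature neutrophil sums of the silica libraries other than silica 11 lie between 6265 and 8684 CPM, against 4150.4 to 6537 CPM in air.

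The calcium-binding proteins S100a8 and S100a9 form calprotectin, an abundant protein of the neutrophil cytosol. S100a9 lay at 1315, 1543 and 2183 CPM in air and at 641, 2566 and 3560.3 CPM in silica. The lowest value was silica 11, and the other 5 silica libraries started at 2299 CPM, above every air library. The log2 fold change was 0.55 ± 0.30 (SE) with an interval from -0.10 to 1.199, and 0.75 ± 0.16 without silica 11 with an interval from 0.42 to 1.09. S100a8 lay at 453, 690.3 and 1064 CPM in air and at 84.5, 1067 and 1407 CPM in silica. Silica 11 was again lowest, and the others started at 889 CPM, inside the range of air. The log2 fold change of S100a8 was 0.44 (interval -0.52 to 1.40), and 0.69 without silica 11 (interval 0.30 to 1.08). edgeR's adjusted p without silica 11 was 0.226 for S100a9 and 0.306 for S100a8.

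The granule proteases followed. Mmp8, the neutrophil collagenase, lay at 107, 128 and 183 CPM in air and at 88.0, 209 and 239.8 CPM in silica. Silica 11 was the lowest library, and the other 5, from 201 CPM up, were all above air. The log2 fold change was 0.51 (interval 0.06 to 0.97), and 0.67 ± 0.12 (SE) without silica 11 (interval 0.42 to 0.93). Mmp9, the gelatinase of the tertiary granules, lay at 29.0, 60.3 and 95.6 CPM in air and 82.8, 98.3 and 141 CPM in silica. Here silica 11 was the highest, and the groups overlapped between 82.8 and 95.6 CPM. The log2 fold change of Mmp9 was 0.76 (interval 0.28 to 1.25), and 0.66 without silica 11. So S100a8, S100a9 and Mmp8 were low in silica 11 while Mmp9 was high in it.

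Padi4, which citrullinates histones in the formation of neutrophil extracellular traps, did not overlap. It lay at 18.9, 24.7 and 28.3 CPM in air and at 28.6, 35.5 and 61.6 CPM in silica, with silica 11 highest. Padi4 had a log2 fold change of 0.72 (interval 0.30 to 1.14), and 0.56 without silica 11. Ncf4, a cytosolic subunit of the phagocyte NADPH oxidase, had a log2 fold change of 0.53 (interval 0.12 to 0.93), and 0.35 without silica 11 (interval 0.08 to 0.61). Ncf1, another cytosolic subunit, had 0.26 (interval 0.03 to 0.49), with estimated counts that were not whole in any library. The membrane subunits differed from each other, with Cyba at 0.52 (interval 0.03 to 1.01) and Cybb at -0.09, which was 0.06 without silica 11. Without silica 11 Cyba came down to 0.24 (interval -0.01 to 0.50), since that library had 159 CPM where the other silica libraries reached 91.4 CPM at most.

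The receptors that govern neutrophil traffic were less separated. Csf3r, the receptor for granulocyte colony-stimulating factor, lay at 325, 413 and 576 CPM in air and 399.7, 495 and 781 CPM in silica, and the groups overlapped widely. Its log2 fold change was 0.33 (interval -0.07 to 0.72), and 0.20 without silica 11 (interval -0.11 to 0.51). Cxcr2, the receptor for neutrophil-attracting CXC chemokines, had 0.32 (interval -0.15 to 0.79), and 0.47 without silica 11 (interval 0.19 to 0.76). Il1r2, the decoy receptor for interleukin-1, lay at 39.5, 46.0 and 91.5 CPM in air and 49.3, 68.1 and 96.2 CPM in silica. Air 08 was far above the other air libraries, and the log2 fold change was 0.40 (interval -0.07 to 0.87).

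**Figure D4:**
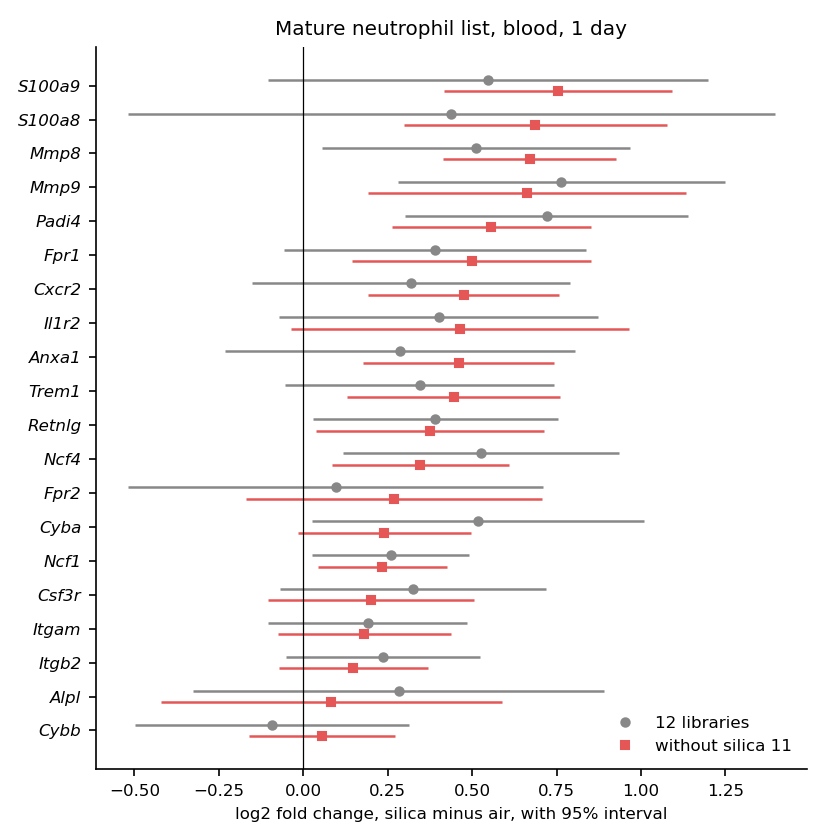
Log2 fold change of silica minus air (x axis) with its 95% interval for 20 of the 22 tested genes of the mature neutrophil list. Values are for all 12 libraries and without silica 11. Intervals are narrower without silica 11 for S100a8, S100a9 and Mmp8. The estimates of the 20 genes shown are then above 0, as are those of all 22 tested.

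Genes of immature neutrophils did not all lean the same way. Their list, made mostly of proteins that are laid down in granules in the bone marrow, had 9 of 16 members above the filter. Mpo, Prtn3, Ctsg and Ltf, proteins of the primary and specific granules, were too low to test. Of the 9, 8 were higher and 1 lower, 3 of them higher at an unadjusted p under 0.05, as were 2.48% of all tested genes, with a median of 0.36 (0.16 without silica 11, where 3 were again higher at that p beside 6.07% of all tested genes, and 0.02 without silica 11 and silica 12). The 3 were Pglyrp1, a peptidoglycan-recognition protein of secretory granules, the chitinase-like Chi3l1, and haptoglobin, Hp. Pglyrp1 lay at 14.3, 20.7 and 25.3 CPM in air and 25.8, 30.2 and 50.8 CPM in silica, and the groups did not overlap. Pglyrp1 had a log2 fold change of 0.77 (interval 0.36 to 1.18), and 0.64 without silica 11. Ngp and Cd177, both markers of late neutrophil precursors, had -0.26 (interval -0.92 to 0.41) and 0.01 (interval -0.65 to 0.66). Without silica 11 they had -0.44 (interval -1.19 to 0.32) and -0.15 (interval -0.87 to 0.57). Each of these 2 was highest in the library air 08, with 53.2 CPM of Ngp and 22.8 CPM of Cd177.

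For some genes with a higher estimate in silica, the stretch of 250 bases before the start site is given here. The stretches are from RefSeq on the build GRCr8 (not the build of the counts). They are given because factors of the C/EBP family and PU.1 are known regulators of granulocyte genes. These genes did not move together in every library. In the silica library that stood apart from the others, S100a9 and Mmp8 were below every air library. Pglyrp1 and Alox5 were above every air library there. Pglyrp1 and Alox5 are also outside the mature neutrophil list. S100a9, Mmp8, Pglyrp1 and Alox5 are given 5′ to 3′ on the strand of the gene: chr2:178490623-178490872 on the minus strand, chr8:13008640-13008889 on the plus strand, chr1:87659613-87659862 on the plus strand and chr4:151251127-151251376 on the minus strand. Capitals mark letters that match the core of PU.1 sites, which is GAGGAA. On the complementary strand of the same site this core is written TTCCTC. They also mark the core of C/EBP sites, TTNNGCAA, or on the complementary strand TTGCNNAA. The motifs do not overlap in these stretches.
S100a9: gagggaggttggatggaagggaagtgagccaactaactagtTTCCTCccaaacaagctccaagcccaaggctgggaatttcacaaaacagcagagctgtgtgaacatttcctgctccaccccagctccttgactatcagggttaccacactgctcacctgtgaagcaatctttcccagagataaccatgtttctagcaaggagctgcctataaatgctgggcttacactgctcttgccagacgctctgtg
Mmp8: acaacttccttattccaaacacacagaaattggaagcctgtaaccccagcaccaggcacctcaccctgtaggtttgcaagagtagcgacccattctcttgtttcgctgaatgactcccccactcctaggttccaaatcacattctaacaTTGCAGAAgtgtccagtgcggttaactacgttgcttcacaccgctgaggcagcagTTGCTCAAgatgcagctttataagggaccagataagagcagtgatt
Pglyrp1: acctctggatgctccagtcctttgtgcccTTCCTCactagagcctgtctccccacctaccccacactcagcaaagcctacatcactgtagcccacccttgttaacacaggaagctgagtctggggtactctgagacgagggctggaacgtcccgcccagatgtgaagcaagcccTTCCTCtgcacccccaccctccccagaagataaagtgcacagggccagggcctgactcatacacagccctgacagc
Alox5: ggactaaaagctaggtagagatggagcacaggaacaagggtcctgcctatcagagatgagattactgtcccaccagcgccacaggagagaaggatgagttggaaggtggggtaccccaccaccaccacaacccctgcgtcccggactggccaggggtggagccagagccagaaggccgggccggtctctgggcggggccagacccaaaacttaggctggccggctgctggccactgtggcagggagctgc
The stretch of Mmp8 held 2 matches of the C/EBP letters, that of S100a9 held 1 of the PU.1 letters, that of Pglyrp1 held 2 of them and that of Alox5 held none of either. Of the 22 tested genes of the mature neutrophil list 14 had a promoter in the table. The C/EBP letters were in 4 of these 14 (28.6%), in 7.67% of the 8304 tested genes with a promoter and in 9.20% of all 27457 promoters. The PU.1 letters were in 7 of the 14 (50%), in 23.5% of the tested genes and in 23.2% of all promoters. A match describes the letters and is not a bound site.

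Outside the neutrophil lists, the genes with the smallest unadjusted p at a mean of at least 5 CPM included Alox5, Pygl and Timp2. Alox5, the 5-lipoxygenase that starts leukotriene synthesis, lay at 11.9, 17.1 and 18.4 CPM in air and at 19.6, 24.1 and 26.1 CPM in silica. All 6 silica libraries were above all 6 air libraries, and the log2 fold change was 0.56 ± 0.13 (SE), a factor of 1.47, with an interval from 0.27 to 0.84. It was 0.55 without silica 11. Pygl, the glycogen phosphorylase of liver and leukocytes, lay at 69.7, 77.7 and 96.3 CPM in air and 92.8, 106 and 122 CPM in silica, with a small overlap. Pygl had a log2 fold change of 0.43 (interval 0.18 to 0.68). Timp2, an inhibitor of metalloproteinases, lay at 22.3, 24.8 and 28.3 CPM in air and 29.4, 32.01 and 38.0 CPM in silica. The groups of Timp2 did not overlap, and its log2 fold change was 0.38 (interval 0.15 to 0.62).

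The other higher genes of that choice were Lgals3, Tcn2 and Spsb2, with Padi4 and Pglyrp1 described above. Lgals3 encodes galectin-3, a lectin of macrophages and monocytes, and had a log2 fold change of 0.49 (interval 0.19 to 0.79). Tcn2, the vitamin B12 carrier transcobalamin, had 0.55 (interval 0.21 to 0.89), and Spsb2 had 0.58 (interval 0.21 to 0.94). All 3 had their highest or second-highest value in silica 11 and kept estimates of 0.42 to 0.46 without it. Among the lower genes of that choice, Rap1gds1, an exchange factor of small GTPases, lay at 12.8, 15.1 and 17.9 CPM in air and 7.05, 11.02 and 13.6 CPM in silica, with a log2 fold change of -0.54 (interval -0.87 to -0.20). Rfx5, a factor that MHC class II promoters need, had -0.34 (interval -0.60 to -0.09), and the arginine transporter Slc7a1 had -0.43 (interval -0.76 to -0.09). The groups of Rap1gds1, Rfx5 and Slc7a1 overlapped at their edges.

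Groups that did not overlap at all were few. Among all tested genes, 7 (0.0589%) were higher in every silica library than in any air library: Alox5, Padi4, Pglyrp1, Smim4, Srgn, Stk19 and Timp2. Another 9 (0.0758%) were lower in every silica library: Fam214a, Ftsj1, Mitd1, Plscr4, Serac1, Setd5, Ssrp1, Them4 and Wwc3. These genes were picked out after their values were seen. Without silica 11, over the same genes, 63 (0.53%) were higher and 36 (0.303%) lower with no overlap, 3 of the first in the mature neutrophil list.

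Monocyte genes differed by less. Of 20 tested, 17 were higher and 3 lower, 2 higher at an unadjusted p under 0.05 (Lgals3 and Csf2ra) beside 2.48% of all tested genes, with a median log2 fold change of 0.08. Without silica 11 the median was 0.15 and 6 were higher at that p, beside 6.07% of all tested genes. Their sums were 5244, 6507 and 7487 CPM in air and 6207, 6984 and 9459 CPM in silica, and the groups overlapped. Lyz2, lysozyme, which neutrophils also make, supplied most of the sum: it lay at 4082, 5072 and 5948 CPM in air and 4833, 5532 and 7796 CPM in silica. Its log2 fold change was 0.27 (interval -0.08 to 0.62), and its estimated counts were not whole in any library. Csf1r, the receptor for macrophage colony-stimulating factor, had 0.08 (interval -0.26 to 0.43), and 0.03 without silica 11. Mpeg1, the pore-forming perforin-2 of phagocytes, had 0.09 (interval -0.51 to 0.70), and 0.29 without silica 11, a library that had 60.2 CPM against 208 CPM or more in the other silica libraries.

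Dendritic cell genes had 13 tested members, 11 higher and 2 lower, 0 at an unadjusted p under 0.05 and a median of 0.19 (2 higher at that p and a median of 0.24 without silica 11). Their sums were 144, 151 and 169 CPM in air and 164, 168 and 208 CPM in silica, where silica 16 was the highest. The list of eosinophils, basophils and mast cells had 10 tested, 7 higher and 3 lower, 2 at an unadjusted p under 0.05 (the histidine decarboxylase gene Hdc and the shared cytokine receptor subunit Csf2rb), and a median of 0.18. Without silica 11, 5 of the 10 were higher at that p, where all tested genes had 6.07% against 2.48% with it. Ccr3, the eotaxin receptor of eosinophils, lay at 32.3, 35.4 and 41.3 CPM in air and 32.9 to 60.7 CPM in 5 silica libraries, but at 2.61 CPM in silica 11. Its log2 fold change was 0.12 (interval -0.81 to 1.05) with that library and 0.37 (interval 0.11 to 0.64) without it. Alox15, the 15-lipoxygenase of eosinophils and reticulocytes, made up most of the list's sum and had -0.11 (interval -0.69 to 0.47), and -0.26 without silica 11.

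Lymphocyte genes leaned slightly the other way, and 0 members of the B, T and NK lists reached an unadjusted p under 0.05. Of 26 tested T cell genes, 9 were higher and 17 lower with a median of -0.05, and without silica 11 the counts were 2 and 24 with a median of -0.10. All 26 had an interval inside the 2-fold limits. Cd3e, a chain of the T cell receptor complex, lay at 60.9, 66.4 and 85.6 CPM in air and 51.7, 68.7 and 73.0 CPM in silica. The groups of Cd3e overlapped, silica 16 was lowest, and the log2 fold change was -0.05 (interval -0.32 to 0.22). B cell genes had 6 higher and 12 lower of 18, a median of -0.05, and sums of 402, 604 and 673 CPM in air and 471, 516 and 559 CPM in silica. Cd79b, a chain of the B cell receptor complex, had -0.05 (interval -0.40 to 0.30), and -0.13 without silica 11.

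NK and cytotoxic genes were bounded less tightly. Of 22 tested, 5 were higher and 17 lower, with a median of -0.14 (-0.12 without silica 11), and 17 had an interval inside the 2-fold limits. Their sums were 847, 967 and 1124 CPM in air and 463, 964 and 1291 CPM in silica. Silica 14 was lowest for the NK receptor Ncr1, for perforin, Prf1, and for the chemokine Ccl5, and silica 16 was highest for the last 2. Prf1 lay at 111, 152 and 184 CPM in air and 44.6, 148 and 232 CPM in silica. Both extremes were silica libraries, and the log2 fold change was -0.03 (interval -0.67 to 0.61), and -0.15 without silica 11. Over 28 alternatives it ran from -0.36 to 0.16. Plasma cell genes had 9 tested with a median of 0.16, 1 higher (Mzb1) and 1 lower (Prdm1) at an unadjusted p under 0.05, and 0 in either direction without silica 11.

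Genes were also listed by function, and the counts at an unadjusted p under 0.05 are to be read beside the 2.48% of all tested genes that were higher and the 1.15% that were lower, or beside 6.07% and 3.05% without silica 11. The list of interleukin-1, tumour necrosis factor and inflammasome genes had 20 tested members, 16 higher and 4 lower, with a median log2 fold change of 0.15 (0.28 without silica 11). At an unadjusted p under 0.05, 3 of the 20 were higher, and 7 without silica 11, beside 2.48% and 6.07% of all tested genes. The 3 were Il1rap, the accessory chain of the interleukin-1 receptor, with 0.34, the adaptor Myd88 with 0.40, and the feedback inhibitor Socs3 with 0.65. Interleukin-1 beta itself, Il1b, lay at 230.3, 285 and 348 CPM in air and 263, 338 and 403 CPM in silica. The groups overlapped, with a log2 fold change of 0.23 (interval -0.08 to 0.54). The genes for interleukin-1 alpha, tumour necrosis factor, interleukin-6 and interleukin-10 were too low to test. Il1rn, the interleukin-1 receptor antagonist, had 0.27 (interval -0.09 to 0.64), and 0.38 without silica 11 (interval 0.12 to 0.64).

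Of 37 interferon-stimulated genes 23 were higher and 14 lower, 1 higher at an unadjusted p under 0.05 (Isg15, 0.36), a share near the 2.48% of all tested genes, with a median of 0.05. Without silica 11, 6 of the 37 were higher at that p, beside 6.07% of all. Irf7, their transcription factor, spread from 1266 to 3256 CPM within air alone and had 0.12 (interval -0.35 to 0.59), and 0.04 without silica 11. MHC class II had 0 of 10 at that p, and Cd74, its invariant chain, had 0.00 (interval -0.29 to 0.29). Of 11 complement genes 3 were higher at an unadjusted p under 0.05, with and without silica 11, beside 2.48% and 6.07% of all. With all libraries they were properdin, Cfp, with 0.48, factor D, Cfd, with 0.66, and the C5a receptor, C5ar1, with 0.31, and without silica 11 these values were 0.29, 0.44 and 0.31. Of 18 immediate early genes 4 were higher at that p (Jun, Junb, Ier3 and Dusp1), beside 2.48% of all, with a median of 0.28. Without silica 11, 2 were higher and 1 lower, beside 6.07% and 3.05% of all, and the median was 0.10. Junb was at 323 CPM in silica 11 and at 139 CPM or less in air, and its log2 fold change went from 0.65 to 0.35 without that library. Clock, heat shock and haem synthesis genes had 0 members at that p, and without silica 11 1 clock gene was lower at it. Of 25 cell cycle genes 21 were lower, 0 at that p, with a median of -0.22 that became 0.11 when the library air 04 was left out.

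The lung of the same time gave a scale for the blood. In lung 1 day after exposure, 2307 of 15630 tested genes (14.8%) passed an adjusted p of 0.05 with edgeR and 11 samples. Of these, 1354 were higher and 953 lower. The lung libraries air 04 and air 08 differed beyond counting noise in 8.94% of genes. This was under the limit of 10%, so they were averaged and counted as 1. Air 02 and air 07 differed in 10.01% of genes, where the next pair differed in 22.1%, and were kept apart. Averaging them as well gave 1836 calls, and leaving out 1 sample gave 1791 to 2927. Of the 1354 genes higher in lung, 1065 were tested in blood, and 0 were called there. Their median log2 fold change in blood was 0.06 (0.07 without silica 11), and 95 (8.92%) were higher at an unadjusted p under 0.05, as were 2.48% of all blood genes, with 9 lower. Without silica 11 the count was 182 of 1074 (16.9%), beside 6.07% of all blood genes. Of the 953 genes lower in lung, 624 were tested in blood, with 12 higher (1.92%) and 9 lower (1.44%) at that p, near the 2.48% and 1.15% of all blood genes. Without silica 11, 27 of 631 (4.28%) were higher and 19 (3.01%) lower, beside 6.07% and 3.05% of all. Genes that blood neutrophils and monocytes express are in both tissues, and the part of blood cells in the lung values was not tested.

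Genes that rose most in lung were barely counted in blood or did not pass the test there. Ccl2, the monocyte-attracting chemokine, had a mean of 2.90 CPM in lung of air and 32.9 CPM in lung of silica, a log2 fold change of 3.51 (interval 3.09 to 3.92). In blood its log2 fold change was 0.20 (interval -0.54 to 0.95; 0.31 without silica 11), so that a rise of the lung's size was outside the interval. Cxcl6, a neutrophil-attracting chemokine, rose by 3.71 in lung and had -0.31 in blood (interval -0.98 to 0.37). Vat1l rose by 4.63 in lung and had -0.53 in blood (interval -1.37 to 0.32), and Ly6al rose by 3.58 and had 0.52 (interval -0.07 to 1.11). These genes were low in blood, with Ccl2 at 0.68 to 2.57 CPM and Cxcl6 at 0.37 to 1.60 CPM, here by total count. On the same scale Vat1l lay at 0.39 to 1.96 CPM and Ly6al at 0.75 to 2.67 CPM. Sod2, the mitochondrial superoxide dismutase that inflammatory signals induce, rose by 1.302 in lung (interval 1.18 to 1.42), and its interval in blood, from -0.16 to 0.38, lay below that. The secreted proteins Lcn2 and Spp1 and the chemokine Ccl7, all higher in lung, reached at most 4, 4 and 1 counts in any blood library and were not tested.

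**Figure D5:**
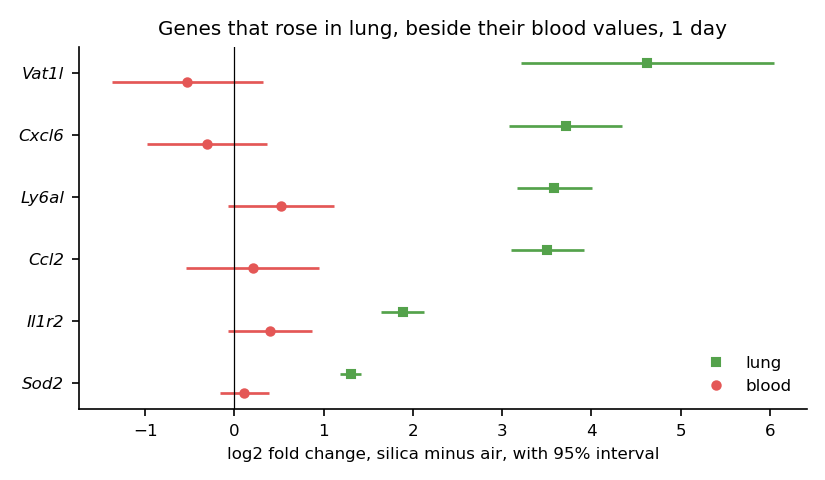
Log2 fold change of silica minus air (x axis) with its 95% interval at 1 day for Vat1l, Cxcl6, Ly6al, Ccl2, Il1r2 and Sod2, in lung (green squares) and in blood of all 12 libraries (red circles). The lung intervals lie above 0 and above the blood intervals for each of the 6 genes, and each blood interval includes 0.

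Blood 6 months after the same exposure was compared with its own air controls. There too 0 of 11615 tested genes (0%) passed an adjusted p of 0.05 with edgeR, with 720 at an unadjusted p under 0.05. The silica effect at 6 months minus that at 1 day was tested directly in 1 fit, and 0 of 12264 genes (0%) passed, with 335 at an unadjusted p under 0.05. Mature neutrophil genes had a median log2 fold change of 0.44 at 6 months beside 0.36 at 1 day. Other lists had medians of that size or more at 6 months, with globins at 0.71 and B cell genes at 0.51. Erythroid genes had 0.41, cell cycle genes -0.45 and T cell genes 0.00. At 1 day the medians of these lists were 0.65, -0.05, 0.00, -0.22 and -0.05. S100a9 had 0.68 at 6 months (interval 0.12 to 1.24) and Mmp8 had 0.80 (interval 0.33 to 1.28). Ngp and Cd177, at -0.26 and 0.01 at 1 day (-0.44 and -0.15 without silica 11), had 0.88 (interval 0.36 to 1.41) and 0.97 (interval 0.38 to 1.57) at 6 months. The difference of the 2 times was 1.14 for Ngp (interval 0.28 to 2.0002) and 0.97 for Cd177 (interval 0.07 to 1.86), neither past an adjusted p of 0.05. Without silica 11 these differences were 1.33 and 1.13, with the adjusted p at 0.957 for both. Over 28 alternatives the estimate at 1 day ran from -0.45 to 0.17 for Ngp and from -0.19 to 0.41 for Cd177. In the other tested genes of immature neutrophils, the difference of the 2 times was 0.51 (Camp), 0.10 (Elane), 0.05 (Hp) and -0.003 (Chi3l1). It was -0.05 for Fcnb, -0.30 for Pglyrp1 and -0.34 for Cebpe. The median log2 fold change of that list was 0.51 at 6 months (8 genes tested) beside 0.36 at 1 day (9 genes tested). NK and cytotoxic genes had a median of -0.74 at 6 months beside -0.14 at 1 day, with Prf1 at -0.88 (interval -1.82 to 0.07).

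The scaling of the libraries was set beside their red cell content. Over the 12 libraries the TMM factor and log2 CPM of Alas2 had r = 0.17 (permutation p = 0.567) and rho = -0.20 (permutation p = 0.544), the 1 relation computed. For this relation the CPM of Alas2 are by total count and not TMM-scaled. Without the 2 libraries farthest from the median (silica 12 and silica 15), r was 0.08. Within the 6 air libraries r was -0.84 (exact permutation p = 0.0417) and rho was -0.66 (exact permutation p = 0.175), and within the 6 silica libraries r was 0.24 (exact permutation p = 0.607). The relation had opposite signs in air and silica, and that difference was not tested.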

How the data were processed

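The values are Salmon's estimated counts per gene, deposited by the authors in 1 table per tissue and time, neither scaled to depth nor to gene length. Salmon 1.10.1, STAR 2.6.1d, the genome Rnor_6.0, Trim Galore 0.6.7, bcl2fastq 2.19 and cutadapt 3.4 are listed in the submitters' processing notes, which do not say what each did. Per the labels' protocols, stranded libraries were made from polyadenylated RNA after depletion of globin mRNA. For the annotation, a release is not given in the sources read.

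Counts were rounded and fitted with edgeR 4.0.16 in R 4.3.3 (quasi-likelihood F test, robust, TMM scaling, genes kept by filterByExpr with a minimum count of 10 in 6 libraries of either group, Benjamini-Hochberg threshold 0.05 over all tested genes). The SE is the size of the log2 fold change before edgeR's shrinkage toward 0, divided by the root of F. The 95% intervals are centred on the reported, shrunken log2 fold change and use the fit's t quantile. CPM are TMM-scaled and are not per gene length, so they compare a gene between libraries, not one gene with another. Library measures were compared by two-sided exact permutation tests (SciPy 1.17.1). The fit was tested on simulated counts. DESeq2 1.42.0, limma 3.58.1 (voom), other scalings, filters and covariates, and each library left out were alternatives.

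The libraries compared, the gene lists and the tests were chosen with earlier results of these data known. Genes were named by rules: the 8 smallest unadjusted p in each direction at a mean of at least 5 CPM, the 20 most abundant genes, the 3 most abundant tested members of each list, the 10 largest rises in lung with Ccl2, Lcn2, Spp1, Il1r2 and Sod2, defining genes of blood cells, and the 5 widest and 5 narrowest intervals. List members at an unadjusted p under 0.05 were added after their values were seen. Some genes that these rules name are not reported here. Library numbers are those of the labels. None of the 13 listed mitochondrially encoded genes is in the table under its symbol, so their share of counts is not analysed here. Of the remaining 26 lists, those not described in the results had these counts at an unadjusted p under 0.05, where all tested genes had 2.48% higher and 1.15% lower (6.07% and 3.05% without silica 11). Of 14 glucocorticoid-responsive genes 2 were higher (1 without silica 11). Of 19 chemokine genes 1 was lower (4 higher and 0 lower without silica 11). Of 21 lysosome genes 2 were higher (4 without silica 11). Of 18 oxidative stress genes 1 was higher (2 higher and 1 lower without silica 11).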

Additional observations from a re-analysis of the deposited data

Results flagged for a closer look

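In each group of 6 libraries, a value was looked at again when the gap between the highest or lowest library and its neighbour was above Dixon's 95% critical value for 6 samples, as a share of the group's range. Of 178 groups examined (89 quantities in both groups), 21 (11.8%) met this. The quantities include genes that the text gives, some of them chosen because silica 11 decided their estimate. The quantities of a library are also not independent, so this share was not set against a chance level. The library silica 11 accounts for 12 of them, air 08 for 4, silica 16 for 2 and air 04, air 05 and silica 12 for 1 each.

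In silica 11 the summed levels of cell cycle genes (965 CPM), immediate early genes (2174 CPM) and oxidative stress genes (106480.4 CPM) were far above the other silica libraries, and that of heat shock genes (751 CPM) was far below. Among single genes silica 11 was far above for Ftl1 (81115 CPM), Ubb (54999.9 CPM), Ucp2 (27032 CPM), Slc25a39 (21158 CPM), Ngp (32.2 CPM) and Cd177 (16.2 CPM), and far below for Mmp8 (88.0 CPM) and Mpeg1 (60.2 CPM). Mmp8 and Mpeg1 are made by phagocytes, Ngp and Cd177 by late neutrophil precursors, and Ftl1, Ucp2 and Slc25a39 are abundant in red cell precursors.

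In air 08 the neutrophil precursor genes Ngp (53.2 CPM) and Cd177 (22.8 CPM) and the interleukin-1 decoy receptor Il1r2 (91.5 CPM) were far above the other air libraries, and the MHC class II invariant chain Cd74 (728 CPM) was far below. Silica 16 had the highest summed dendritic cell level (208 CPM) and the lowest Cd3e (51.7 CPM). Hbb was far above its group in air 05 (7398 CPM) and in silica 12 (20658 CPM), and the summed level of clock genes was lowest in air 04 (183 CPM).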

How the results depend on the processing

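No gene was called with all 12 libraries by edgeR under other scalings, filters, dispersions or samples in the fit, by DESeq2 or limma voom, or with any 1 library left out. The exceptions were 873 genes with the first principal component as a covariate, and 47 with DESeq2 when silica 11 was left out. That component was computed from values centred in each group, but the estimates still moved with it. The median log2 fold change over all tested genes was -0.05 with the component, beside -0.01 as reported. Of the 873 genes, 182 had an unadjusted p under 0.05 in the same direction in the reported edgeR fit. Without silica 11, the other fits (limma voom, RLE factors, a mean of at least 5 CPM) called 0, with smallest adjusted p of 0.267, 0.270 and 0.1696.

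Genes at an unadjusted p under 0.05, 430 as reported, numbered 1225 with voom weights, 669 with no filter on low counts, 169 with log2 Alas2 CPM as a covariate and 2614 with the first principal component. They ranged from 255 (without air 05) to 1094 (without silica 11) with 1 library left out. With silica 11 left out, they numbered 1113 (DESeq2), 1319 (voom), 1079 (RLE) and 895 (mean of at least 5 CPM), and 933 with silica 12 left out as well. The share of intervals within a 2-fold change, 88.1% as reported, was 93.2% with voom, 56.0% with no filter, 94.9% at a mean of at least 5 CPM, 85.4% with all 4 blood groups in 1 fit, 80.7% with Alas2, 90.6% with the component, and 83.1% to 92.0% with 1 library left out. With silica 11 out it was 92.1% (voom), 92.0% (RLE), 98.5% (mean of at least 5 CPM) and 89.8% (silica 12 out too). The cause was not tested, apart from fewer or more low genes tested.

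Blood at 6 months had 0 to 2 calls with 1 library left out (2 without air 19 and 1 without silica 36). The difference in total counts ranged from -0.00438 (without air 07) to 1.13 in units of 1000000 counts, and r of the TMM factor with Alas2 from -0.32 to 0.38. Of 193 named genes, 128 kept the sign of their change in every alternative and 65 did not. The median of the mature neutrophil list stayed between 0.29 and 0.44 in 16 alternatives, that of the NK list between -0.23 and -0.05, and that of the erythroid list changed sign in 8. Genes under 4 CPM were bounded least. No paired analysis was possible because the silica and air blood libraries carry different numbers.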

Other observations

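Leaving silica 11 out and testing with DESeq2 gave 47 genes, picked out after their values were seen, of which 46 were higher in silica, with a lowest adjusted p of 8.2e-04. Only Cpsf1, a subunit of the polyadenylation machinery, was lower. All 47 had an unadjusted p under 0.05 in the same direction in edgeR without silica 11, none passed edgeR's adjusted threshold there, and 11 had an unadjusted p under 0.05 in the same direction with all 12 libraries. DESeq2 gave no adjusted p to 5817 of the 11998 genes. Of the 47, which are 0.392% of the genes tested, 5 are among the 22 tested genes of the mature neutrophil list, among them Mmp8, S100a9, S100a8 and Padi4. Cd200r1, an inhibitory receptor of myeloid cells, Tlr2, a receptor for bacterial lipoproteins, and Mpzl2 were also among the 47. No enrichment among these genes was tested.

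Cd200r1 lay at 8.16, 9.65 and 11.7 CPM in air (lowest, median, highest) and 12.4 to 18.1 CPM in 5 silica libraries, with silica 11 at 5.23 CPM. Tlr2 lay at 52.7, 57.9 and 67.6 CPM in air and 72.0 to 92.8 CPM in the same 5 libraries, with silica 11 at 38.3 CPM. Mpzl2, a cell adhesion protein, lay at 16.2, 19.9 and 20.6 CPM in air and 20.4 to 33.8 CPM in those 5, with silica 11 at 6.21 CPM. The 5 libraries of Cd200r1 and Tlr2 were above every air library and those of Mpzl2 overlapped air at the edge, while silica 11 was below every air library for all 3. Their log2 fold changes without silica 11 were 0.67 (interval 0.42 to 0.91), 0.43 (interval 0.23 to 0.63) and 0.60 (interval 0.35 to 0.84), and with it 0.50, 0.30 and 0.39.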
